A study of Bos taurus with 35 samples.

Results

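UCP1, ZIC1 and LHX8 are 3 of the 24596 bovine Ensembl genes counted in fat and muscle of Hanwoo cattle, and they were grouped because each is used elsewhere as a marker of brown fat. They were found in the tables by identifier, ENSBTAG00000004647 for UCP1, ENSBTAG00000014751 for ZIC1 and ENSBTAG00000019192 for LHX8. The question was whether the developmental markers ZIC1 and LHX8 and the thermogenic gene UCP1 mark the same depots. The study had picked all 3 for qRT-PCR from these animals, UCP1 as a gene higher in omental fat, ZIC1 as one lower there and LHX8 as one higher in subcutaneous fat, so those contrasts are not independent evidence. The contrasts that did not enter that choice are UCP1 and ZIC1 between intramuscular and subcutaneous fat, LHX8 between omental and intramuscular fat, and all comparisons with muscle.

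Brown adipocytes burn fuel for heat, while white adipocytes store it as triglyceride. UCP1 is a carrier of the inner mitochondrial membrane that lets protons return without making ATP, and it is the protein through which brown and beige adipocytes release energy as heat. ZIC1 is a zinc finger transcription factor best known from the dorsal neural tube and dorsal somites, and LHX8 is a LIM homeobox transcription factor best known from the basal forebrain and developing jaw and teeth. In mice both are used to tell classical brown fat, which shares its origin with skeletal muscle, from beige cells that arise within white depots. They mark where a cell comes from, whereas UCP1 marks what it does.

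The libraries came from animals of the breed Hanwoo (Korean native cattle), 30 months of age and kept at the same experimental station. Omental fat (O) was taken along the lesser curvature of the abomasum, and intramuscular fat (I), subcutaneous fat (S) and muscle (M) came from a section at ribs 6 and 7, muscle serving as a reference here. The tables comprised 9 O, 8 I, 9 S and 8 M libraries, numbered 1 to 9 by animal, with I of animal 9 and M of animal 7 not analysed here. The labels listed animals 1, 4 and 7 as female, 3, 6 and 9 as male and 2, 5 and 8 as castrated male, while the study's methods speak of steers. The labels list no treatment, and each library was made from dissected tissue that holds other cells besides adipocytes.

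Counts on genes ranged from 3726376 to 7184022 per library, and a count of 0 in 1 library allowed a level of up to 0.418 to 0.805 CPM (a gene's share of the library's counts, in units of 1 part per 1000000), by a limit of 3 counts that covers counting error only. The labelled tissues were checked on the few genes whose names are paired with identifiers. FASN, the fatty acid synthase, was at 217 to 8344 CPM in the fat libraries and at 49.2 to 123.2 CPM in M, without overlap. DUSP27, a gene of striated muscle, was at 410 to 814 CPM in M, at 1.05 to 25.8 CPM in I and at no more than 0.173 CPM in O and 0.320 CPM in S. Identifiers were paired for 1 of 10 white fat markers (TCF21) and for 0 of 15 genes of the thermogenic programme, so the adipocyte and brown fat programmes around the 3 genes were not analysed here. The library labelled muscle replicate 4, of a female animal, had at least 1 CPM of each of 5 genes. These genes were at this level in all libraries labelled male or castrated male and under it in the other female libraries. The edgeR calls against M and the ZIC1 test by sex in M were repeated without it. Folds, counts of animals and shares of the muscle level are given with it only.

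The primer pairs that the study designed for the 3 transcripts are printed here because they fix which transcripts its qRT-PCR read, written 5′ to 3′ in lower case with no part marked.
UCP1 forward: cctaatgactggaggcgtgg
UCP1 reverse: gaggtttgggaccgtggaga
ZIC1 forward: aaaaggacgcacacagggga
ZIC1 reverse: gcaaagatagggcttgtcgct
LHX8 forward: tgctcaggacaacaacccaga
LHX8 reverse: ggggcagaggaggagtgattag

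The 3 genes marked 3 different orders of tissues. UCP1 had its highest levels in O, ZIC1 was without a single count in O and highest in M, and LHX8 was without a count in O and in M and highest in S. The depot with the most UCP1 transcript was therefore the only fat depot in which neither ZIC1 nor LHX8 was detected in any of the libraries. The study had chosen UCP1 as high in O, ZIC1 as low in O and LHX8 as high in S. These differences among the fat depots therefore restate that choice and are not independent evidence. All 3 were scarce in fat, where the highest count in a library was 36 for UCP1, 45 for ZIC1 and 41 for LHX8. Levels below are CPM scaled by the trimmed mean of M values (TMM), compared between tissues for each gene and not between genes, because gene lengths were not at hand. In bulk tissue, fewer cells of a type and less RNA per cell cannot be told apart.

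**Figure D1:**
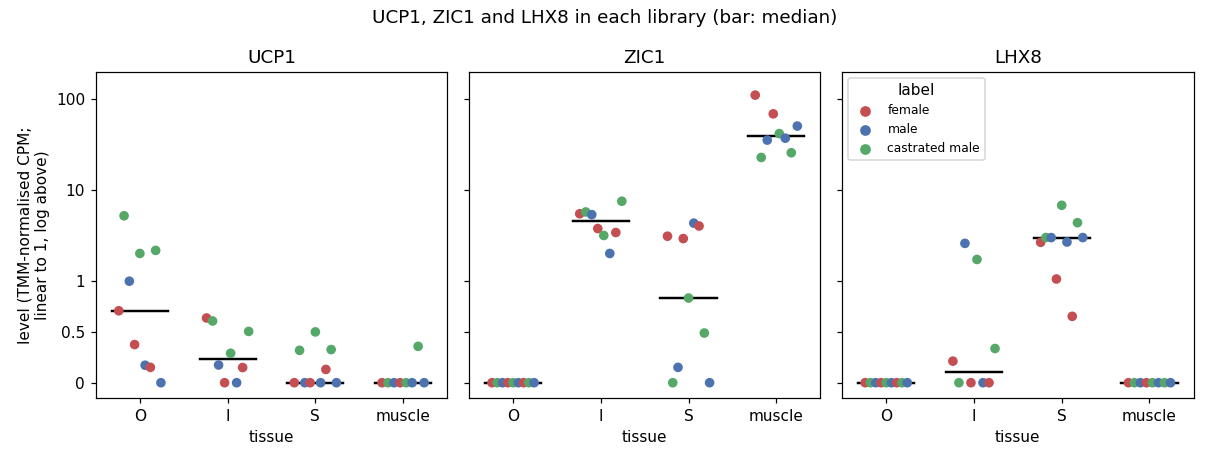
Level of UCP1, ZIC1 and LHX8 (vertical axis, TMM-normalised CPM, linear to 1 and logarithmic above) in each of the 34 libraries, by tissue and coloured by labelled sex, with the median as a bar. UCP1 points are highest in O, all ZIC1 points lie at 0 in O and between 23.0 and 111.1 in muscle, and LHX8 points lie at 0 in O and muscle and above 0 in all 9 S libraries.

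UCP1 was detected in 8 of 9 O, 6 of 8 I, 4 of 9 S and 1 of 8 M libraries. In O the counts of animals 1 to 9 were 4, 36, 7, 2, 15, 1, 1, 16 and 0, which is a median of 0.711 CPM in a range of 0 to 5.27 (1.32 ± 1.68, SD, n = 9). Animals 2, 5 and 8 stood above the others. In I the counts of animals 1 to 8 were 3, 4, 1, 0, 2, 0, 1 and 3, a median of 0.233 CPM in a range of 0 to 0.640 (0.296 ± 0.260, SD, n = 8). In S only animals 2, 5, 7 and 8 had counts, of 2, 3, 1 and 2, with a highest level of 0.502 CPM (0.142 ± 0.193, SD, n = 9). The ranges of the 3 depots overlapped at the low end, but no I or S library reached the median of O. Muscle held 1 count in all, in replicate 8, at 0.359 CPM.

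Over the summed counts, UCP1 was 4.87-fold higher in O than in I (95% interval 2.75 to 9.30, exact for counting error only) and 10.7-fold higher in O than in S (5.198 to 25.7). The level in O was above that in I in 8 of 8 animals and above that in S in 8 of 9, the other being 0 in both. Some of the differences between O and I were small. Animal 7 had 1 count in each, animal 1 had 4 against 3, animal 6 had 1 against 0 and animal 4 had 2 against 0. By the quasi-likelihood test of edgeR the log2 difference of O minus I was 2.11 (SE 0.76, adjusted p = 0.0333) and that of O minus S was 3.17 (SE 0.82, adjusted p = 0.0201), neither past the FDR threshold of 0.01. With the animal as a replicate block the same edgeR test gave 2.14 (adjusted p = 0.00451) and 2.996 (adjusted p = 0.00172), both past the threshold. The animal that held 36 of the 82 UCP1 counts in O, replicate 2, lowered these differences to 1.71 and 2.74 when left out. DESeq2 called O minus S (adjusted p = 0.00624) and not O minus I (adjusted p = 0.0215).

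Between I and S, a contrast on which UCP1 was not chosen, the fold was 2.20 with a counting interval of 0.862 to 6.06. It was higher in I in 5 animals, lower in 1 and 0 in both in 2, and edgeR gave a log2 difference of 1.03 (SE 0.74, adjusted p = 0.295). UCP1 differed between O and M, with 82 counts against 1, a ratio of 35.6 (6.21 to 1422) and an edgeR adjusted p of 0.00108. The ratio to M was 7.30 in I (1.11 to 308.65) and 3.32 in S (0.444 to 147.1), with edgeR adjusted p-values of 0.0390 and 0.270. The order was thus O, I, S and M, in which no pair of neighbours passed the threshold in the unblocked quasi-likelihood fit. O and I passed it with the replicate block. The order of I and S rests on 14 against 8 summed counts. In the study's qRT-PCR of these animals O exceeded I by more than it exceeded S, with either reference gene, which places S above I.

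Within O, the 3 castrated males had 36, 15 and 16 UCP1 counts, the 3 females 4, 2 and 1 and the 3 males 7, 1 and 0. Castrated males therefore did not overlap with the other labels in O. In S they held 2, 3 and 2 counts, whereas the females held 0, 0 and 1 and the males none, again without overlap. In I the castrated males had 2 to 4 counts and the females 0 to 3, which overlapped. The exact permutation test over the 3 labels gave p = 0.0286 in O, p = 0.0357 in S and p = 0.296 in I, or 0.0714, 0.0714 and 0.395 after adjustment over the 8 tests of this kind, so none passed 0.05. The difference between O and I by label had p = 0.0214 by the exact permutation test, adjusted to 0.0964 over 9 such tests.

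**Figure D2:**
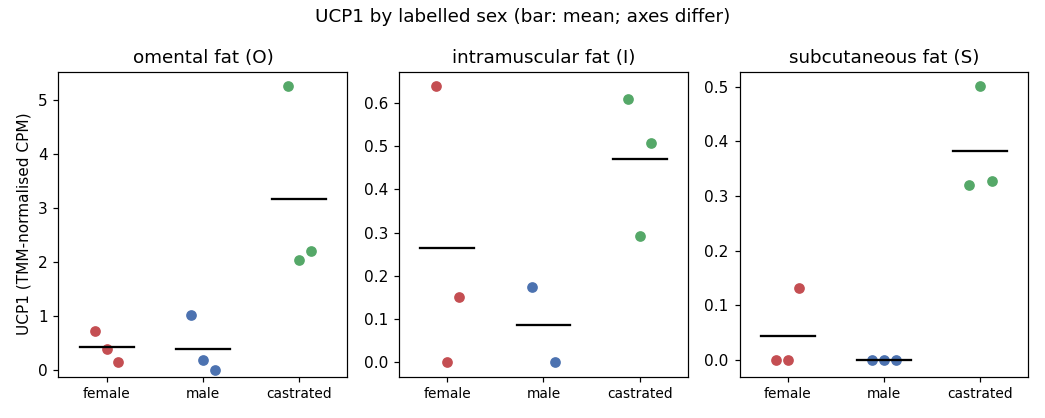
UCP1 level (vertical axis, TMM-normalised CPM, with a different scale in each panel) in O, I and S by the sex on the label, each point being 1 library and the bar the mean. Castrated males lie at 2.03 to 5.27 in O and at 0.320 to 0.502 in S, above all females and males of the same depot, and overlap with the females in I.

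ZIC1 was at 0 counts in all 9 O libraries, which together held 47699033 counts on genes, so that a limit of 3 counts over the group allows up to 0.0518 CPM. In I the counts of animals 1 to 8 were 26, 38, 31, 24, 22, 11, 23 and 45, a median of 4.61 CPM in a range of 2.03 to 7.601 (4.61 ± 1.79, SD, n = 8). In S the counts of animals 1 to 9 were 21, 0, 1, 25, 5, 29, 31, 3 and 0, a median of 0.837 CPM in a range of 0 to 4.37 (1.78 ± 1.83, SD, n = 9). The S libraries fell apart into 5 with no more than 5 counts and 4 with at least 21, while every I library had at least 11. In M the counts ran from 72 to 267, at 23.0 to 111.1 CPM with a median of 39.7 (49.4 ± 28.9, SD, n = 8), above every fat library.

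ZIC1 was at least 88.1-fold higher in I than in O and at least 36.6-fold higher in S than in O, taking 3 counts over the group for O. The groups I and O did not overlap, and in S animals 2 and 9 were at 0 as in O. The edgeR adjusted p was 2.0e-07 for O against I and 0.00846 for O against S. The call in O against S was lost when any of replicates 1, 4, 5, 6, 7 and 8 was left out (edgeR adjusted p from 0.0140 to 0.0208), and both contrasts had served to choose the gene. Between I and S the fold was 2.41 (1.91 to 3.04 for counting error), I was higher in 6 of 8 animals, and the log2 difference was 1.35 (SE 0.57, edgeR adjusted p = 0.0698).

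Skeletal muscle held more ZIC1 than any depot, 10.3-fold the level of I (8.90 to 11.9), 24.8-fold that of S (20.4 to 30.3) and at least 906.65-fold that of O. It was higher in M in 7 of 7 animals against I, in 8 of 8 against S and in 8 of 8 against O. The log2 difference of M minus I was 3.45 (SE 0.33, edgeR adjusted p = 7.6e-09) and that of M minus S was 4.69 (SE 0.53, edgeR adjusted p = 6.8e-08). Without the doubtful muscle replicate 4 they were 3.36 and 4.61. The order was M, I, S and O, and I and S were the neighbours that did not differ past the threshold.

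Muscle transcripts were also present in I, so the ZIC1 level in fat was set beside muscle genes as a share of the level in muscle of the same animal. In I, ZIC1 stood at 4.99% to 29.4% of the muscle level (median 7.62%, 7 animals). DUSP27 stood at 0.166% to 6.30% (median 1.17%), and TPM2, a tropomyosin of muscle fibres also made in smooth muscle, at 3.02% to 6.53% (median 5.01%). The share of ZIC1 was above that of DUSP27 in 7 of 7 animals and above that of TPM2 in 6 of 7. Over 210 genes that were at least 100-fold higher in M than in O and in S, the summed level in I was 0.440% to 4.02% of that in M (median 1.57%), below the share of ZIC1 in 7 of 7 animals. The part of muscle tissue in the ZIC1 level of I was not tested.

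In S, ZIC1 stood at 0% to 11.7% of the muscle level (median 1.94%, 8 animals), DUSP27 at no more than 0.0393% and the 210 genes at 0.0650% to 0.105%. The share of the 210 genes in S is held low by the way they were chosen. TPM2 in S ranged from 70.7 to 262 CPM, with its highest levels, 262 and 232 CPM, in replicates 7 and 1, which held 31 and 21 ZIC1 counts and no DUSP27 count. Only 2 of 12 fixed muscle fibre markers, TPM2 and DUSP27, could be paired with an identifier. The part of TPM2-bearing cells in the ZIC1 level of S was not tested.

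**Figure D3:**
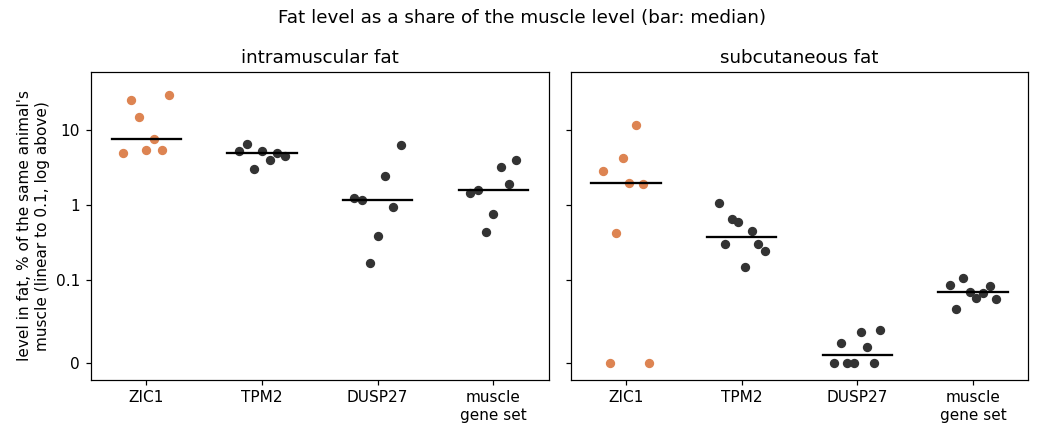
Level in I (left) and S (right) as a percentage of the level in muscle of the same animal (vertical axis, linear to 0.1 and logarithmic above) for ZIC1, TPM2, DUSP27 and the summed 210 muscle genes, with each point an animal and the bar the median. ZIC1 has a median of 7.62% in I and 1.94% in S, with 2 S points at 0, and the 210 genes were chosen as low in S.

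By labelled sex, ZIC1 in S had 21, 25 and 31 counts in the females, 1, 29 and 0 in the males and 0, 5 and 3 in the castrated males. The highest castrated male was below the lowest female, and the males spanned both. The exact permutation test gave p = 0.182 (adjusted p = 0.291). In M the 2 libraries labelled female held 267 and 197 counts, at 111.1 and 69.2 CPM, against 35.6 to 50.8 CPM in males and 23.0 to 42.02 CPM in castrated males, and the exact permutation p was 0.0143 (adjusted p = 0.0571). The second of them is muscle replicate 4, and without it the adjusted p was 0.0857 by the same exact test, in which 1 female library is left and the spread among females is not measured. In I the labels overlapped (exact permutation p = 0.571).

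LHX8 was at 0 counts in all 9 O libraries and all 8 M libraries, which allows up to 0.0518 CPM in O and 0.120 CPM in M over the group. In S it had a count in every library, 18, 19, 20, 9, 41, 18, 5, 27 and 19 in animals 1 to 9, a median of 3.03 CPM in a range of 0.656 to 6.86 (3.06 ± 1.81, SD, n = 9). In I the counts of animals 1 to 8 were 1, 0, 15, 0, 12, 0, 0 and 2, a median of 0.107 CPM with a highest level of 2.62 CPM (0.615 ± 1.004, SD, n = 8). S was thus clear of O and M, and the I libraries of replicates 3 and 5, with 15 and 12 counts, lay within the range of S while the others had at most 2 counts.

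LHX8 was at least 56.0-fold higher in S than in O and at least 24.3-fold higher in S than in M, each by the group limit of 3 counts, and S was the higher in 9 of 9 and 8 of 8 animals. The edgeR adjusted p was 4.3e-05 for O against S and 4.8e-06 for M against S. S was 4.66-fold higher than I (3.15 to 7.12 for counting error) and higher in 8 of 8 animals. The log2 difference of I minus S was −2.23 (SE 0.69, edgeR adjusted p = 0.0142), past the threshold of 0.01 only with other settings, among them −2.76 with the animal as a replicate block (edgeR adjusted p = 0.00363). Without replicate 3 the fold rose to 8.17 and the unblocked edgeR adjusted p was 0.00318.

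Between O and I, a contrast on which LHX8 was not chosen, I was at least 12.02-fold higher, with 4 animals higher in I and 4 at 0 in both, and the edgeR adjusted p was 0.0131. The bound was 6.001 without replicate 3 and 7.34 without replicate 5. Against M it was at least 5.21-fold higher in I (edgeR adjusted p = 0.0258). The order was S, I and then O with M, in which I was past the threshold from none of its neighbours in the unblocked quasi-likelihood fit over all animals.

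In S the LHX8 counts were 18, 9 and 5 in the females, 20, 18 and 19 in the males and 19, 41 and 27 in the castrated males. Scaled levels were 0.656 to 2.69 CPM, 2.71 to 3.04 CPM and 3.04 to 6.86 CPM, so the 3 labels did not overlap after scaling, while their raw counts did. The highest male (3.036 CPM) and the lowest castrated male (3.038 CPM) held 19 counts each. The highest female and the lowest male held 18 counts each. The separation between labels at these points was thus less than 1 count. The exact permutation test gave p = 0.00357, adjusted to 0.0286 over 8 tests. The call was narrow, since it was lost when library sizes were not scaled by TMM (adjusted exact permutation p = 0.0714) and in 8 of 9 rounds that left out 1 animal (up to 0.152). In I the labels overlapped (exact permutation p = 0.464).

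The number of the 3 genes past the threshold was read against the share of all genes. In O against I, 1 of the 3 (ZIC1, higher in I) was called, where 25.0% of 19611 genes were called and 14.1% were called as higher in I. In O against S, 2 of the 3 (ZIC1 and LHX8, both higher in S) were called. There 3.03% of 19310 genes were called and 1.03% were called as higher in S, but both genes were chosen on this contrast. In I against S, none of the 3 was called by the quasi-likelihood test of edgeR, where 24.9% of 19643 genes were called and 14.2% as higher in I, although 2 (ZIC1 and LHX8) had an unadjusted p under 0.05 and DESeq2 called 1 (LHX8). Against M, the calls were UCP1 and ZIC1 of the 2 tested in O, where 48.5% of all genes were called, ZIC1 of 3 in I, where 44.2% were, and ZIC1 and LHX8 of 3 in S, where 47.5% were.

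Whether the genes moved apart between depots was also tested on ratios of 2 of them within a library, in which library size and gene length cancel. The ratio of UCP1 to ZIC1 was higher in O than in I by 7.52 ± 1.40 on the log2 scale (SD over animals, n = 8, positive in 8 of 8) and higher in O than in S by 5.61 ± 2.57 (n = 9, positive in 8 and equal in 1), each with an adjusted exact permutation p of 0.0117. The ratio of UCP1 to LHX8 was higher in O than in S by 7.33 ± 1.97 (9 of 9 animals) and higher in I than in S by 4.08 ± 1.85 (8 of 8), both with an adjusted exact permutation p of 0.0117. It was higher in O than in I by 3.50 ± 2.66 (7 of 8, equal in 1, adjusted exact permutation p = 0.0201). UCP1 thus differed from both developmental genes between O and the other depots, but each ratio holds a gene that the study chose on that contrast. These results are therefore not independent evidence. The sizes depend on the 0.5 added to each count, since O held none of either denominator.

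The developmental genes also differed from each other between I and S, a contrast on which the study had chosen LHX8 as higher in S. The ratio of ZIC1 to LHX8 was higher in I than in S by 5.28 ± 2.82 on the log2 scale (8 of 8 animals, adjusted exact permutation p = 0.0117). No comparison with O is given for this ratio, since both genes were at 0 there and the added 0.5 alone sets its value. The only ratio in which neither gene was chosen on the contrast, UCP1 to ZIC1 between I and S, gave −1.20 ± 2.69, with 4 animals in each direction (adjusted exact permutation p = 0.258). The smallest p that these exact tests could give was 0.0078 for 8 animals and 0.0039 for 9.

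**Figure D4:**
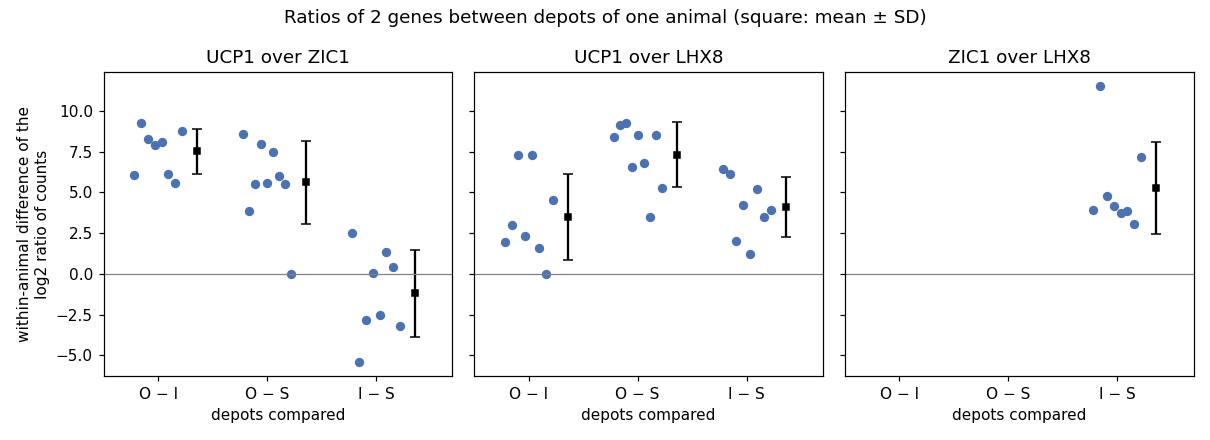
Within-animal difference between 2 depots of the log2 ratio of 2 genes' counts (vertical axis), for UCP1 over ZIC1, UCP1 over LHX8 and ZIC1 over LHX8, with a point for each animal and the mean ± SD as a square with bars. Both UCP1 ratios lie at or above 0 in all animals for O minus I and O minus S, while ZIC1 over LHX8, shown for I minus S alone because both genes are at 0 in O, is above 0 in 8 of 8 animals.

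Within a depot the genes were compared animal by animal. In S, animal 5 had the highest LHX8 level, 6.86 CPM, with 0.837 CPM of ZIC1, and animals 2 and 9, with 19 LHX8 counts each, had no ZIC1 count. Animal 6 had the highest ZIC1 level, 4.37 CPM, with 2.71 CPM of LHX8, and animal 7 followed with 4.07 CPM of ZIC1 and the lowest LHX8 level, 0.656 CPM. Animal 1 had 3.14 CPM of ZIC1 and 2.69 CPM of LHX8, so both genes were present together in part of the S libraries. Because ZIC1 in S and LHX8 in I fall into separate clusters of under 6 libraries at one side, no correlation was computed for those 3 pairs of genes. In I, UCP1 and ZIC1 had r = 0.750 (exact permutation p = 0.0358) and rho = 0.707 (exact permutation p = 0.0595) over 8 animals, and r = 0.724 without the 2 animals farthest from the median. It was the only correlation computed, and UCP1 in I had at most 4 counts per library.

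**Figure D5:**
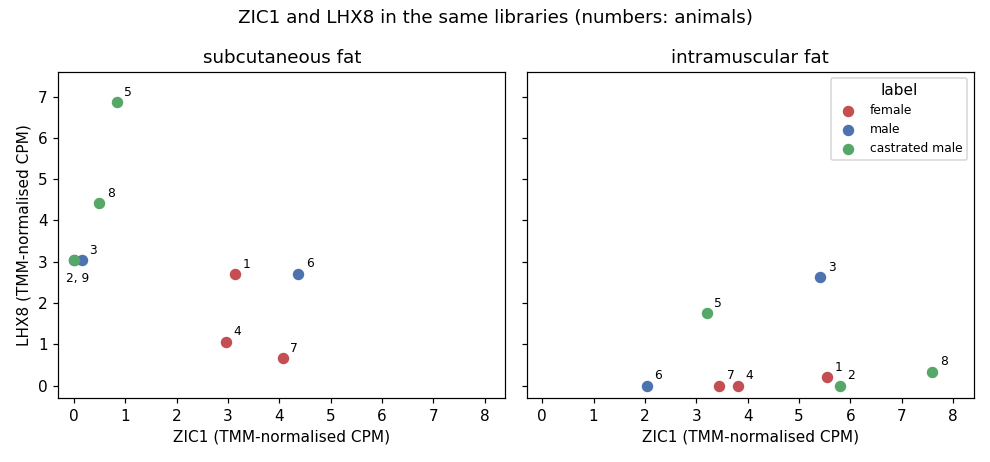
LHX8 (vertical axis) against ZIC1 (horizontal axis), both in TMM-normalised CPM, in the S (left) and I (right) libraries, with animals by number and colour by labelled sex. Animals 2 and 9 coincide in S at 0 ZIC1 and about 3.03 LHX8, and all S libraries lie above 0 in LHX8 while 4 of the 8 I libraries lie at 0.

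Positional transcription factors of the same qRT-PCR list were set beside the 3 genes, all of them picked by the study from these animals. TBX15, a T-box factor, was at no more than 0.518 CPM in O, at 11.1 to 49.7 CPM in I, at 32.5 to 53.4 CPM in S and at 47.8 to 309.4 CPM in M, so that like ZIC1 it was lowest in O and its highest median was in M. Unlike ZIC1, its levels in I and S lay close together (log2 difference −0.08, edgeR adjusted p = 0.778). TCF21, a basic helix-loop-helix factor of visceral mesoderm, was at 5.01 to 10.7 CPM in O and at no more than 0.640 CPM in I, 0.152 CPM in S and 0 in M. Like UCP1 its mean levels ran in the order O, I, S and M, but its O libraries did not overlap with the others.

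EN1, a homeobox factor, was at 19.0 to 34.5 CPM in S and at no more than 8.46 CPM elsewhere, and TBX5, a T-box factor of heart and forelimb, at 0.480 to 2.89 CPM in S and no more than 0.303 CPM elsewhere. ISL1, a LIM homeobox factor like LHX8, was highest in O, with 0.303 to 6.33 CPM there, no more than 0.455 CPM in S and 0 in M. Of these 5 factors, 2 were higher in O, 1 was higher in I and 2 did not pass in O against I, where 10.9% and 14.1% of all genes were called in these directions. In O against S, 2 were higher in O and 3 in S, where 3.03% of all genes were called in either direction and 1.03% as higher in S. In I against S, 1 was higher in I, 2 were higher in S and 2 did not pass, where 14.2% and 10.7% of all genes were called. As the study chose these factors on such contrasts, nothing is read from the counts.

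Leukocyte markers could be followed only through 4 of 9 fixed genes, ITGAM, CD163, CCR2 and MMP9, which the study had itself picked from these animals, the first 3 as lower in I and MMP9 as higher in O. Their count of 4 of 4 higher in O than in I, where 10.9% of all genes were, was therefore set by that choice. Against S, 1 of 4 (MMP9) was higher in O, where 3.03% of all genes were called in either direction. Their levels in O were 43.3 to 221.4 CPM for ITGAM and 294.5 to 959.8 CPM for CD163, both macrophage genes, against 6.25 to 20.7 and 57.8 to 190.1 CPM in I. Their part in the UCP1 level of O was not tested, and no mesothelial, endothelial or nerve marker had an identifier.

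The genes with a pattern most like each member over the 34 libraries were named by Pearson's r of log2 CPM among 13946 genes with a mean of at least 1 CPM, as a description. For ZIC1 it was ENSBTAG00000014749, with r = 0.968 over all libraries and 0.940 over the 26 fat libraries. That gene was at 0 counts in all 9 O libraries as well, at 0.635 to 2.03 CPM in I and at 3.69 to 12.1 CPM in M. Among the 31 genes with a symbol the closest were TPM2 (r = 0.911, rank 8 of all genes) and DUSP27 (r = 0.900, rank 27). Over the 26 fat libraries their r was lower, at 0.734 and 0.679. For LHX8 it was ENSBTAG00000004633 (r = 0.848), followed among named genes by CYP17A1, the steroid 17-hydroxylase (r = 0.809, at 3.92 to 31.6 CPM in S and at most 2.10 CPM elsewhere), and EN1 (r = 0.743). No gene was as close to UCP1, for which the highest r was 0.673, and the closest named gene was TCF21 (r = 0.603, rank 36, and 0.541 over the fat libraries). The libraries share depth and tissue differences, and the few UCP1 counts limit its r.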

How the data were processed

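Poly(A) RNA of fat and muscle was sequenced by the authors as paired-end reads of 90 bases, mapped to bosTau6 with TopHat2 2.0.2 and counted per Ensembl gene with HTSeq 0.5.3p3. The deposited tables hold raw counts, 1 table for each library. The strand setting is not given in the sources used here, so genes overlapping on opposite strands may share reads. The 5 lines that name no gene were left out, and held 63.3% to 71.1% of a library's counts. Symbols were paired with identifiers for 31 genes through the study's primer table. Its primer sequences were copied.

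Each pair of tissues was fitted alone with edgeR 4.0.16 (R 4.3.3), with TMM scaling, no filter beyond 1 count, the quasi-likelihood test and Benjamini-Hochberg adjustment over all genes of the fit at an FDR under 0.01, without a term for the animal, since the study's methods name none. DESeq2 1.42.0, the likelihood ratio test and other scalings, filters and sample sets were alternatives. TMM levels used Python 3.11.15 with pandas 2.3.3, numpy 2.4.6 and scipy 1.17.1. Ratios were tested by exact sign flips within animals, with 0.5 added to each count and adjustment over 9 tests, 2 of which (ZIC1 to LHX8 with O) are void and not given, and labelled sexes by exact permutation of log2(CPM + 0.5), both two-sided. Of the 12 sex tests planned 8 were run, since the others had a count in fewer than 2 libraries. A fold against a tissue at 0 used 3 counts over the group. Pipelines were tested on simulated data.

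The replicate number is the animal in the labels, so it pairs the samples. Deviations of same-animal libraries correlated with medians of 0.432 for O and S, 0.0992 for O and I and 0.212 for I and S (lowest −0.316). Libraries of different animals had medians of −0.0384, −0.0124 and −1e-04 for these pairs. Between M and O, I and S the same-animal medians were 0.140, 0.275 and 0.0276, against −0.0126, −0.0104 and 0.0306 for different animals. For M and S the pairing thus rests on the labels alone. No 2 libraries of a tissue agreed within sampling noise (lowest chi-square per degree of freedom 12.7 over 128 pairs). P-values measure the spread between animals. The genes, lists and tests were chosen with earlier results of these data known. Named are the 3 genes, list members with an identifier and the genes of highest r to each, with at most 2 identifiers that lack a symbol. Neighbouring genes were not named, since no gene order of this build was used. FASN was chosen after its values were seen. Leaving out muscle replicate 4, leaving out animals in the sex tests, and testing sex by depot were added after seeing the data, as was the choice to compute no correlation in clustered samples.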

Additional observations from a re-analysis of the deposited data

Results flagged for a closer look

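In omental fat, UCP1 in replicate 2 stood at 5.27 CPM, with 0.583 of the range of the 9 libraries between it and the next, which is past the critical value of Dixon's test. In muscle, the single UCP1 count of replicate 8 (0.359 CPM) was the only value above 0, so its gap was the whole range. The test was applied to 9 groups of libraries, of which chance flags about 1 in 20, and many of these groups hold counts near 0.

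The within-animal difference of LHX8 between O and S differed between the labelled sexes (exact permutation p = 0.00357, adjusted to 0.0321 over 9 tests), with mean differences on the log2(CPM + 0.5) scale of −1.84 in females, −2.78 in males and −3.33 in castrated males. LHX8 was 0 in all O libraries, so this is the same spread as that of LHX8 in S and not a second observation.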

How the results depend on the processing

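Over 35 results, 527 alternative values were computed, of which 483 kept direction and side of the threshold, 25 came to pass it, 17 no longer passed it and 2 changed direction. UCP1 in O against I passed at an FDR under 0.05 (log2 difference 2.11) and with the replicate block (2.14). UCP1 in O against S passed at 0.05 (3.17), with the likelihood ratio test (3.12), DESeq2 (3.27), one fit over 4 tissues (3.13), the replicate block (2.996) and the sex covariate (3.10). LHX8 in O against I passed at 0.05 (−5.01), with the likelihood ratio test (−4.998), the joint fit (−4.87) and the sex covariate (−5.13). LHX8 in I against S passed at 0.05 (−2.23), without scaling (−2.41), with the likelihood ratio test (−2.25), DESeq2 (−2.29), the replicate block (−2.76) and the sex covariate (−2.34). UCP1 in M against I passed at 0.05 (−2.24) and without scaling (−2.78). LHX8 in M against I passed at 0.05 (−4.58), without scaling (−4.88), with the likelihood ratio test (−4.59) and the sex covariate (−4.93). ZIC1 in O against S was lost with only the animals that have all 4 tissues (−6.51, edgeR adjusted p = 0.0204), a fit with fewer samples. The call over the 3 labels for LHX8 in S was lost without scaling, where castrated males stood above the mean of the female and male means by 1.07 on the log2(CPM + 0.5) scale, and the rank correlation of UCP1 and ZIC1 in I (0.707) missed the threshold that r passed. The cause was not tested. The replicate block changed no other call.

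Leaving out each animal, ZIC1 in O against S ranged from −6.75 to −6.31, LHX8 in I against S from −3.04 to −2.04, LHX8 by sex in S from 0.751 to 1.28 and LHX8 by sex in I from −0.436 to 0.885, the last with both changes of direction, without replicates 5 and 6 (−0.374 and −0.436). No ratio given in the report changed its call with 1 or 2 added to each count, unpaired, or without an animal. No call against muscle changed without muscle replicate 4. Filters on low counts removed UCP1 from all fits, ZIC1 from O against S and LHX8 from most fits, so they gave no value there. The genes called in O against S numbered 586, but 1255 at an FDR under 0.05, 971 with the likelihood ratio test, 1032 with DESeq2, 1295 with the replicate block, 368 in animals with all 4 tissues and 389 without replicate 9. Without TMM the median log2 difference of all genes moved to 0.22 in O minus I, −0.20 in I minus S and −0.96, −0.79 and −0.94 in M minus O, I and S, and the calls higher against lower went from 2133 and 2767 to 3500 and 2116, from 2790 and 2097 to 2236 and 3209, from 4293 and 4985 to 1827 and 9442, from 4002 and 4537 to 1812 and 8229 and from 4234 and 4896 to 1899 and 9127. Depth limits UCP1 in I, S and M and LHX8 in I, where the median library held no more than 1.5 counts.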
